A study of Mus musculus with 4 samples.

Results

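The cells described here are the luteal cells of the mouse ovary, taken from single-cell RNA sequencing of 4 ovary libraries. A barcode was called luteal when it had at least 500 genes, over 1000 UMIs (unique molecular identifiers, each standing for 1 captured RNA molecule) and under 10% mitochondrial UMIs, when at least 4 of the 8 genes Hsd17b7, Runx2, Bhmt, Rgs7, Plin4, Lrrn1, Ltbp1 and Gm2a were detected, when Cyp11a1 had at least 3 UMIs, when Inhba and Amh together stayed under 10 per 10000 UMIs, and when Cyp17a1 stayed under 3 UMIs. Of the 12 sub-clusters into which these cells fell, 7 went against the name luteal. For 5 of them this was by their leading genes, and for 2 by their level of Abcb1b, a gene used below to choose interstitial cells. The rule kept 3298 of 47782 filtered cells, or 6.9%. The study asked what the AP-1 transcription factor Fosl2 does in granulosa cells, so ovaries were dissociated from mice of 8 weeks that carried LoxP sites around the coding exons of both Fosl2 alleles. In 2 libraries (Fosl2F/F) the mice had no Cre, and in the other two (Fosl2cKO) they also carried Cyp19a1-Cre, which is driven by the aromatase promoter of granulosa cells. All animals shared the floxed alleles and came, by the labels, from the same litter. The study's vaginal smears put the mice that were sequenced in estrus. Ovaries of 2 females a group were taken for sequencing, and the labels do not tie a library to an animal, so the spread between libraries may be technical as well as biological.

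Luteal cells form the corpus luteum, the gland that the ruptured follicle becomes after ovulation. Granulosa cells, and some theca cells, stop dividing, take up or make cholesterol, and turn it into progesterone through Star, which carries cholesterol into the mitochondrion, Cyp11a1, which cleaves its side chain, and Hsd3b1, which makes progesterone from pregnenolone. Luteinizing hormone acts on them through Lhcgr and prolactin through Prlr. In rodents a corpus luteum regresses when prostaglandin F2α acts on its receptor Ptgfr and when Akr1c18, the 20α-hydroxysteroid dehydrogenase, converts progesterone into an inactive product.

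The 2 Fosl2F/F libraries gave 195 and 2006 luteal cells, and the 2 libraries labelled Fosl2cKO gave 625 and 472. Their median depth was 24204, 10069.5, 23033 and 20201 UMIs per cell in the same order, and their summed UMIs ranged from 5851427 to 30775064. Fosl2F/F replicate 2 therefore stood apart, with the most luteal cells and the shallowest ones. Median mitochondrial UMIs of the luteal cells were 4.51%, 2.8%, 3.04% and 3.27%. No luteal barcode occurred in more than 1 library. Levels below are UMIs per 1000000 UMIs (CPM) of the summed luteal cells of a library, always given in the order Fosl2F/F replicates 1 and 2, then Fosl2cKO replicates 1 and 2.

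The targeted gene was not lower under the Fosl2cKO label. Fosl2 stood at 225 and 225 CPM in Fosl2F/F, and at 253 and 306 CPM under the Fosl2cKO label, with a log2 fold change of 0.21 ± 0.23 (SE, n = 2 libraries a group) and an adjusted p of 0.805 by edgeR. Both libraries labelled Fosl2cKO lay slightly above both Fosl2F/F libraries, and the difference did not pass. In mural granulosa cells it was at 228 and 212 CPM against 269 and 129 CPM, with a log2 fold change of -0.19 ± 0.33 and an unadjusted p of 0.581 by edgeR, and the groups overlapped. The LoxP sites flank exons 2 and 4, while the kit counts 3′ ends, so these levels do not by themselves check the label, and the libraries are called "labelled Fosl2cKO".

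The share of luteal cells among filtered cells differed more within Fosl2F/F than between the groups. It was 2.22% and 8.25% in Fosl2F/F, with a mean of 5.23% ± 4.26 (SD, n = 2), against 8.71% and 6.29% in the libraries labelled Fosl2cKO, with a mean of 7.5% ± 1.71 (SD, n = 2). The groups overlapped, and a two-sided exact permutation test gave p = 0.667, where 2 libraries against 2 cannot go below 0.333. Detection of the 8 genes depends on depth. In another setting, cells with at least 5000 UMIs were thinned to 5000 before the rule was applied, and shallower cells were left out. The shares were then 1.47%, 13.7%, 4.72% and 4.74%, and the Fosl2F/F mean was the higher. This left out 1779 of 8780, 14862 of 24320, 1115 of 7175 and 1226 of 7507 filtered cells. The cells compared were thus unlike parts of their libraries. Among cells with at least 3 Cyp11a1 UMIs, the luteal share was higher in both libraries labelled Fosl2cKO than in both of Fosl2F/F, at 7.61%, 24.9%, 29.2% and 29.8%, where the exact test gave its smallest p of 0.333. Fewer luteal cells in the ovary and fewer luteal cells surviving dissociation cannot be told apart.

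Cells with exactly 4 of the 8 genes, just inside, numbered 68, 525, 244 and 125, and cells with exactly 3, just outside, numbered 145, 818, 379 and 168. Star, which the rule did not use, stood at 1112, 492, 835 and 713 CPM just inside and at 564, 442, 797 and 473 CPM just outside. Lhcgr, also outside the rule, stood at 466, 265, 187 and 573 CPM just inside and at 272, 203, 139.8 and 403 CPM just outside. Abcb1b, a gene by which interstitial cells are chosen below, stood at 1123, 358, 947 and 1080 CPM just inside. Just outside it was at 808, 391, 824 and 781 CPM. Median depth was 18490.5, 7642, 23781 and 18912 UMIs just inside and 15346, 6727, 21752 and 14695 UMIs just outside. What kind of cell lies at this edge was not tested.

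Luteal markers outside the rule were present. All 14 reached 20 CPM in at least 1 library. Hsd3b1, the enzyme of the last step to progesterone, stood at 2830.4 ± 550 CPM (SD, n = 4 libraries). Prlr, the prolactin receptor, stood at 1761 ± 461 CPM. Scarb1, the receptor that takes up cholesterol from high-density lipoprotein, stood at 964 ± 422 CPM. The summed level of these 14 genes ranged from 11286 to 15694 CPM over the libraries.

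The genes with the largest ratio of luteal level to the level in all other filtered cells, among those with at least 50 CPM in every library, began with Sfrp4, a secreted Wnt antagonist known from the corpus luteum, at 42.7 times the other cells, and Ptgfr at 41.3 times. Sema3d, Nrcam, Cemip, Runx2, Hsd17b7, S100a6, Lrrn1, Gm2a, Lipg, S100a4, Gpx3, Avpi1, Epdr1, Ltbp1, Sgk1, Efhd1 and Tnc were also among the first 20, down to 7.31 times. Of the 20 genes, 5 were part of the rule (Runx2, Hsd17b7, Lrrn1, Gm2a and Ltbp1). These ratios describe cells that were chosen by measured genes, and no test was made of them. Their levels differed widely between libraries. Sfrp4 stood at 4406, 1448, 307 and 1375 CPM, and S100a6, a calcium-binding protein, at 5442, 1793, 1160.3 and 809 CPM, both highest in Fosl2F/F replicate 1. Gm2a, the activator of ganglioside breakdown in lysosomes, was at 1416, 1639, 1445 and 1299.6 CPM, and Runx2, a transcription factor induced at ovulation, stood at 1053, 1696, 896 and 1848 CPM.

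Against the steroid-making cells closest to them, the luteal cells differed at different steps of the pathway. The compared cells were mural granulosa cells that expressed Lhcgr (2435 cells), theca cells that expressed Cyp17a1 (1570 cells, of which Fosl2cKO replicate 1 gave 26) and interstitial cells that expressed Abcb1b and Hao2 (2670 cells), and no cell was shared with them. Cyp11a1, which the rule itself required, was 10.2 times the mural mean, 1.26 times the theca and 1.08 times the interstitial mean. Star, which the rule did not use, was 19.1 times the mural, 3.01 times the theca and 0.96 times the interstitial mean. These ratios pool all luteal cells, whose sub-clusters, described below, differed in Star. Under the Fosl2cKO label it stood at 1814 and 1289.8 CPM in sub-cluster 7, which was high in Abcb1b. In sub-cluster 4 of the same libraries it stood at 183 and 20 CPM. Hsd3b1 was 1.23, 1.09 and 0.936 times the mural, theca and interstitial means. Ptgfr stood higher than in each, at 30.9, 28.7 and 10.1 times the mural, theca and interstitial means. Scarb1 was 2.63 times the mural and 2.63 times the interstitial mean, and 1.23 times the theca mean. Cyp19a1, the aromatase that makes estradiol in granulosa cells, was at 5.13, 3.67, 4.35 and 4.35 CPM in luteal cells and at 0.018 times the mural mean. Inha, a granulosa gene outside the rule, stood at 0.0689 times the mural mean. Nr5a2, counted above among the luteal markers outside the rule, was also lower, at 0.273 times the mural mean.

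Cell cycle genes stood lower in luteal than in mural granulosa cells. Of 17 cell cycle genes, 16 were over 2-fold lower in luteal cells than the mural mean, where 7.34% of the 7823 genes with at least 20 CPM in either were that low. Against the theca and interstitial means it was 0 of the 10 and 0 of the 9 that reached 20 CPM, beside 5.69% and 2.97% of all genes. Of the 17 genes, 7 stood under 20 CPM in the luteal cells of every library. They entered the mural comparison only by their mural level, which favours a lower luteal level. The rule also limited the granulosa markers Inhba and Amh in luteal cells, and its part in the mural contrast was not tested. Mki67, a protein of cycling cells, was at 4.61, 22.1, 32.8 and 24.9 CPM. Cdkn1b, a cell-cycle inhibitor known to hold luteal cells out of the cycle, was 3.48 times the mural mean. Of the 27 cholesterol synthesis genes, 22 had at least 20 CPM in the luteal or the interstitial cells and 7 of those were over 2 times the interstitial mean, where 3.86% of the 7565 genes were. Against the mural and theca means it was 2 of 24 and 1 of 23, beside 9.55% and 7.07% of all genes. Hsd17b7, which acts in cholesterol synthesis and can also make estradiol, is among the 7 over 2 times the interstitial mean. It is a gene of the rule and was 12.3 times that mean. Plin4, also in the rule, and Plin5, which coats lipid droplets in cells that burn fat and was not in it, were 42.1 and 10.9 times the interstitial mean. The rule chose luteal cells by detection of Hsd17b7 and Plin4, so their ratios follow from it.

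The luteal cells were not uniform. Grouping the 3298 cells by their expression after centring each library gave 12 sub-clusters, which fell into 3 groups. In 5 sub-clusters, called the core here, under 25% of the cells were marked as likely doublets (2 cells under 1 barcode, by Scrublet score). Their Abcb1b also averaged under 1000 CPM over the libraries with at least 10 of their cells. They held 53.8%, 60.5%, 46.9% and 55.1% of the luteal cells of the libraries. In 2 sub-clusters, 6 and 7, that average exceeded 1000 CPM. Abcb1b and Hao2 are the genes by which interstitial cells were chosen here. Hao2 stood at 428 CPM in sub-cluster 7 of Fosl2F/F replicate 2 and at 498 and 537 CPM under the Fosl2cKO label. Ltbp1, of the rule, stood there at 185, 31.7 and 46.1 CPM, against 1907 CPM in sub-cluster 9 of Fosl2F/F replicate 2 and 2184 and 5589.9 CPM in sub-cluster 4 of the others. These 2 sub-clusters held 34.4%, 7.18%, 26.7% and 29.2%. The last 5 sub-clusters were led by genes of other cells and were marked as doublets at 59.4% to 81.4%. Their leading genes were Tagln, Acta2 and Col1a2 of smooth muscle and stroma, Amh and Esr2 of granulosa cells, Flt1 and Cdh5 of endothelium, Lyz2 and Cd74 of macrophages, and Krt18 and Upk3b of the surface epithelium. They held 11.8%, 32.3%, 26.4% and 15.7% of the luteal cells. For the Abcb1b-high sub-clusters and for these last 5 the data went against the name luteal, and values of the core sub-clusters alone are given beside several results.

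**Figure D1:**
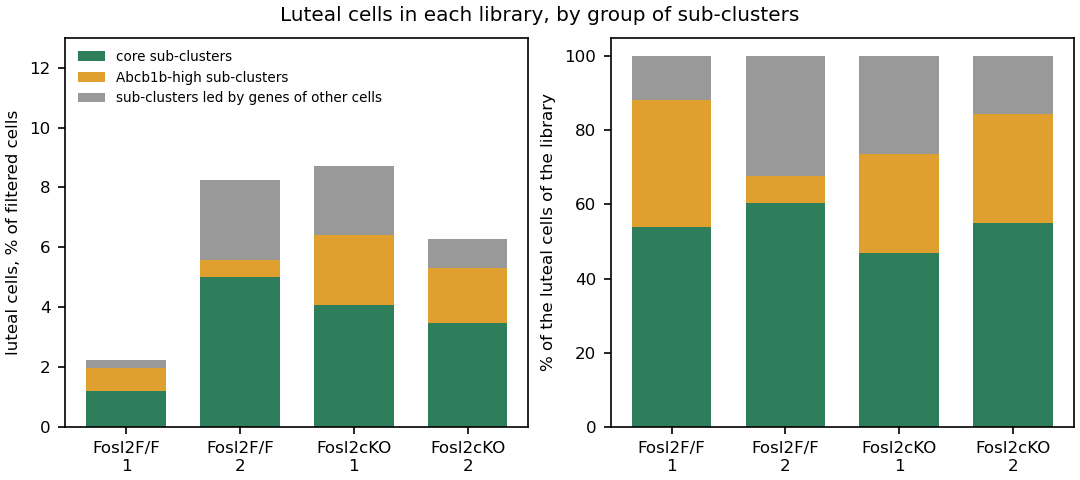
Luteal cells of the 4 libraries as a percent of filtered cells (left) and of the luteal cells of the library (right), stacked by the 3 groups of sub-clusters. Fosl2F/F replicate 1 has the smallest luteal share, 2.22%, and Fosl2F/F replicate 2 the largest part led by genes of other cells, 32.3%.

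The core sub-clusters themselves were split by library. Sub-cluster 4, led by Rgs6, Plb1, Rgs7 and Ltbp1, held 285 and 243 cells under the Fosl2cKO label and 6 and 0 cells of Fosl2F/F. Sub-cluster 2, led by Ltf, Pitx1 and Myl1, held 24 and 294 Fosl2F/F cells and 0 and 2 others. Sub-cluster 3, led by Pdzrn4 and Akr1c18, held 71 cells of Fosl2F/F replicate 1 and 3 of all other libraries. Sub-clusters 9, led by Ssu2 and Lhcgr, and 10, led by Saa3, came almost wholly from Fosl2F/F replicate 2, with 661 of 673 and 259 of 271 cells. A sub-cluster that is mostly 1 library may be that library, and the sizes were not tested. Lhcgr stood at 137 and 138 CPM in sub-cluster 2 of the Fosl2F/F libraries, alike in both, but at 2013 CPM in sub-cluster 9 of Fosl2F/F replicate 2, 154 CPM in sub-cluster 3 of Fosl2F/F replicate 1, and 534 and 2273 CPM in sub-cluster 4 of the libraries labelled Fosl2cKO.

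Between the conditions, edgeR's quasi-likelihood test over 15287 genes called 3 with an adjusted p below 0.1 and a fold change beyond 0.25 on the log2 scale, or 0.0196% of the genes tested, and 1102 (7.21%) had an unadjusted p under 0.05. Of these, Plb1 and Gm36840 (0.0131%) were higher and Pitx1 (0.00654%) was lower in the libraries labelled Fosl2cKO. DESeq2 called 256 of 24321 genes (1.05%), 98 higher (0.403%) and 158 lower (0.65%).

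Plb1, a phospholipase B of intestine and skin that was near 0 in Fosl2F/F, had the largest fold change of the 3 and rose. It stood at 0.684 and 0.26 CPM in Fosl2F/F, and at 885 and 1930.4 CPM under the Fosl2cKO label. The groups did not come near each other, and both libraries labelled Fosl2cKO were high. The log2 fold change was 11.86 ± 0.75 (SE, n = 2 libraries a group), with an adjusted p of 0.0518 by edgeR, from 12 UMIs in Fosl2F/F against 41079. Pooled over libraries this was a ratio of 3950.3, with an exact 95% interval of 2261 to 7646 that covers counting error only. Gm36840, a noncoding gene on the opposite strand within Plb1, had 0 and 2 UMIs in Fosl2F/F and 236 and 246 in the libraries labelled Fosl2cKO, with a log2 fold change of 7.99 ± 0.67 and an adjusted p of 0.0935 by edgeR. It was named after its values were seen, as was Pitx1, because both lie under 20 CPM. The strand setting of the counting is not given in the sources used here, so reads of Gm36840 and Plb1 may not be told apart.

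Plb1 lies beside Fosl2. In GRCm38, Fosl2 covers chromosome 5 from 32135801 to 32157842 on the plus strand and Plb1 from 32232708 to 32366520 on the same strand, starting 74865 bases beyond the end of Fosl2, with Gm36840 at 32320764 to 32354883 on the minus strand. The promoter window of Plb1, from 250 bases before to 50 after its start in RefSeq for GRCm38.p6 (chr5:32238834-32239133, plus strand), whose start lies inside the longer GENCODE gene, is shown because of the size of the Plb1 difference and because it holds 1 match, in capitals, to the AP-1 motif TGANTCA, the kind of site that Fosl2 dimers bind.
Plb1: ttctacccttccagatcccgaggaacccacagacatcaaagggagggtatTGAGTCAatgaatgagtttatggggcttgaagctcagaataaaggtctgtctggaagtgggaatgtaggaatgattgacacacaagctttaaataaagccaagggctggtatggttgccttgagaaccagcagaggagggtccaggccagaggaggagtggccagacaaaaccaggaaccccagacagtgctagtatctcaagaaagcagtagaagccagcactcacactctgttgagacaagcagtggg
The match begins 200 bases before the start. This motif, which reads the same on both strands, occurs in 7.81% of 32851 promoter windows of that length, and in 0 of the 24 windows found for 17 of the 20 leading luteal genes. The second Plb1 window, at chr5:32353330-32353629, held no match. A match of letters is not a bound site.

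Plb1 was found in part of the barcodes called luteal. Each cell with at least 2000 UMIs was thinned to 2000. Of these luteal cells, 56.1% and 61.6% had a Plb1 UMI under the Fosl2cKO label. It was 0 of 195 cells in Fosl2F/F replicate 1, which allows a share of up to 1.54%, and 0.051% in Fosl2F/F replicate 2. Without thinning the shares were 1.54%, 0.399%, 71.8% and 69.3%. In the thinned cells, sub-cluster 4 had it in 94.7% and 99.2% of cells and the Abcb1b-high sub-cluster 7 in 5.99% and 4.35%. Macrophages, which should lack the gene, had a UMI in 3.27% and 3.03% of their thinned cells, at unthinned median depths of 10298 and 9134 UMIs against 23033 and 20201 in luteal cells. The exact intervals of the Abcb1b-high share, 2.91% to 10.7% and 1.61% to 9.22%, overlapped those of macrophages, at 1.33% to 6.62% and 0.991% to 6.93%. The Abcb1b-high cells, which carry the interstitial genes, were thus near the interstitial shares of 5.57% and 5.04%. Plb1 was among the genes that made the sub-clusters, so these shares by sub-cluster are a description.

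**Figure D2:**
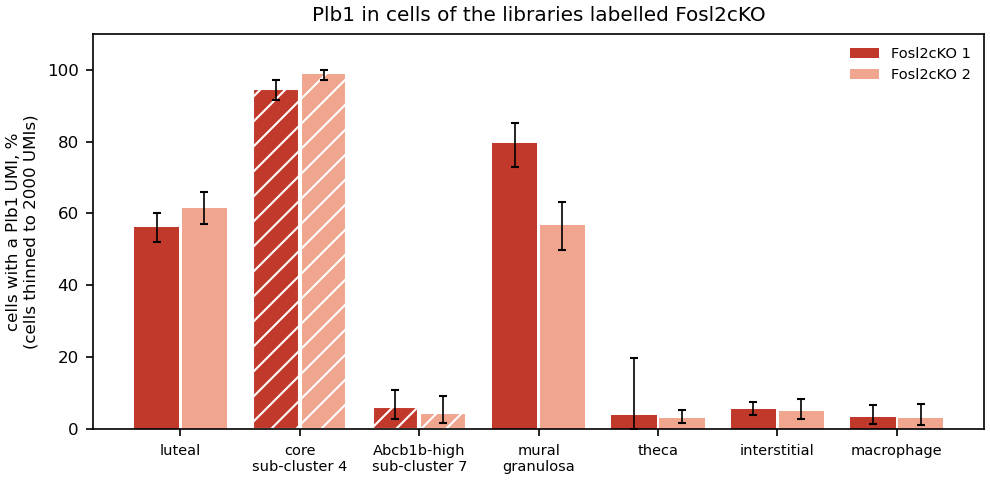
Percent of cells with a Plb1 UMI after thinning to 2000 UMIs, in the 2 libraries labelled Fosl2cKO, for the luteal cells, 2 of their sub-clusters (hatched) and 4 other groups of cells. Error bars are exact 95% binomial intervals for counting error. Sub-cluster 4 reaches 94.7% and 99.2%, and sub-cluster 7 lies at 5.99% and 4.35%, beside theca, interstitial and macrophage cells.

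Within the libraries labelled Fosl2cKO, Plb1 was compared over cells with Ltbp1, a gene of the rule, and with Abcb1b. Spearman's rho between Plb1 and Ltbp1 over thinned cells was 0.667 over 622 cells and 0.767 over 469 cells, and between Plb1 and Abcb1b -0.495 and -0.622. With other genes of the rule it was weaker, at 0.307 and 0.443 for Runx2 and 0.155 and 0.425 for Hsd17b7. With Lhcgr it was 0.148 and 0.399. The core was limited on Abcb1b and in these libraries is nearly all sub-cluster 4, where almost every cell had Plb1, so no rho with Abcb1b is given within it. The rho with Ltbp1 there was 0.0832 over 290 cells and 0.0783 over 257 cells. The cells of a library share its depth and its free RNA, so no p is given. Outside the luteal cells, Plb1 stood at 0.0421, 0, 1566 and 641 CPM in mural granulosa cells, 0.486, 0.138, 51.1 and 60.3 CPM in theca cells and 0.337, 0.203, 56.9 and 101 CPM in interstitial cells. Under the Fosl2cKO label 3.85% (1 of 26 cells) and 3.09% of thinned theca cells had a Plb1 UMI, and 5.57% and 5.04% of interstitial cells, with intervals that overlapped those of macrophages. Mean Plb1 UMIs per thinned cell were 0.115 and 0.0619 in theca, 0.085 and 0.162 in interstitial cells and 0.0841 and 0.0303 in macrophages. Expression and background in theca and interstitial cells were not tested apart, so their levels are not read as expression. By edgeR Plb1 was called higher in mural granulosa, theca and interstitial cells, with adjusted p of 0.00361, 3.69e-04 and 9.85e-05, where 0.00797%, 0.0891% and 0.11% of the genes tested were called. In mural granulosa cells the shares were 79.5% and 56.7%.

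Pitx1, a homeobox transcription factor known from pituitary and hind limb, was the gene called lower. It had 78 and 376 UMIs in the luteal cells of Fosl2F/F and 1 and 0 in the libraries labelled Fosl2cKO, or 13.3, 12.2, 0.0518 and 0 CPM, with a log2 fold change of -8.47 ± 0.68 and an adjusted p of 0.0935 by edgeR. It was highest in sub-cluster 2, at 97 and 91.4 CPM in Fosl2F/F, which has 0 and 2 cells under the Fosl2cKO label, and it was at 0 to 2.92 CPM in the other core sub-clusters. Fewer such cells and less RNA per cell cannot be told apart in the summed counts. Pooled, the ratio of Fosl2F/F to Fosl2cKO was 393, with an exact 95% interval of 70.3 to 15573 for counting error, since 1 UMI was left. In the core sub-clusters alone the log2 fold change was -10.52 and the adjusted p 0.205, so the call was lost. Under the Fosl2cKO label the core is nearly all sub-cluster 4, which Plb1 helped to form, so the calls of Plb1 and Gm36840 there, each at 0.0332 (2 of 12675 genes, 0.0158%), are no check of them. Without Fosl2F/F replicate 1, which has 195 luteal cells, no gene passed and all of these genes had an adjusted p of 0.195, with log2 fold changes of 12.34 for Plb1, -8.39 for Pitx1 and 7.78 for Gm36840. Fitted sizes against so few UMIs depend on the constant that edgeR adds.

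**Figure D3:**
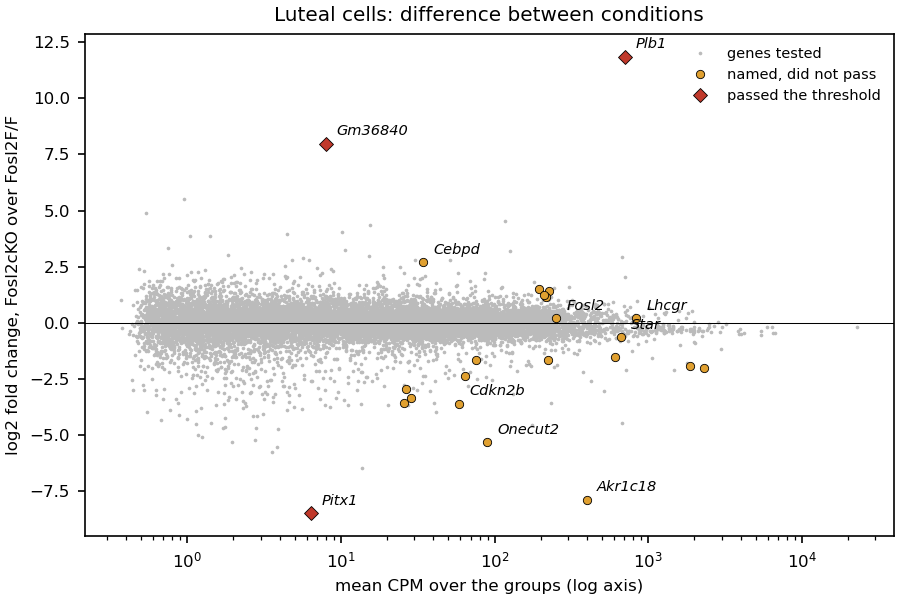
Log2 fold change of each tested gene in luteal cells, Fosl2cKO over Fosl2F/F, against its mean CPM on a log axis. Grey points are the 15287 genes tested, diamonds the 3 that passed and circles genes named in the text that did not pass. Plb1 lies at 11.86 and Pitx1 at -8.47, and Akr1c18 at -7.88 did not pass.

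Akr1c18, the enzyme that inactivates progesterone in the regressing corpus luteum, had the next largest difference of the named genes but did not pass. It stood at 1339.5 and 242 CPM in Fosl2F/F, and at 6.83 and 0.241 CPM under the Fosl2cKO label. Both libraries labelled Fosl2cKO lay far below both Fosl2F/F libraries, with 132 and 3 UMIs in all their luteal cells, and the Fosl2F/F libraries were themselves apart from each other. The log2 fold change was -7.88 ± 1.54 (SE), with an adjusted p of 0.45 by edgeR, and over 20 alternatives the adjusted p ranged from 9.35e-77 to 0.866. It was 0.00708 by DESeq2, 0.0876 by edgeR on thinned cells and 0.324 by edgeR in the core sub-clusters. The log2 fold change itself ranged from -12.05 to -5.73 over the 20 alternatives. After thinning, 30.3% and 7.81% of Fosl2F/F luteal cells had an Akr1c18 UMI, against 0.643% in Fosl2cKO replicate 1 and 0 of 469 cells in replicate 2, which allows up to 0.64%. The background in macrophages was 2.02% and 3.37% in Fosl2F/F and 0 in both other libraries. Outside the luteal cells Akr1c18 lay near that background, in 1.65% and 1.99% of thinned Fosl2F/F interstitial cells, 1.02% and 1.57% of theca and 2.21% and 3.54% of mural granulosa cells. The log2 fold changes there were -4.23, -6.83 and -2.91, with adjusted p of 0.0144, 0.194 and 0.501 by edgeR, and at such shares they are not read as a change in those cells.

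The Akr1c18 RNA of Fosl2F/F sat in part of the luteal cells. It was highest in sub-cluster 2, at 1162 and 1762 CPM, and in sub-cluster 3 of replicate 1, at 2784 CPM. These sub-clusters held 95 of 195 luteal cells (48.7%) in Fosl2F/F replicate 1 and 294 of 2006 (14.7%) in replicate 2. They held only 1 and 4 cells under the Fosl2cKO label. Akr1c18 also stood at 800 CPM in sub-cluster 11 of replicate 2. In replicate 1 it was at 460, 408, 328 and 292 CPM in sub-clusters 1, 9, 10 and 11, which held 9, 2, 2 and 3 cells there. In thinned cells Akr1c18 went with Onecut2, with a Spearman's rho of 0.4 over 195 cells and 0.542 over 1960 cells, and with Ptgfr, with 0.444 and 0.34. Its rho with Lhcgr was -0.14 and -0.265. Within the core sub-clusters (105 and 1172 cells) the rho was 0.159 and 0.557 with Onecut2, 0.274 and 0.38 with Ptgfr, and 0.0765 and -0.37 with Lhcgr. The promoter window of Akr1c18 (RefSeq, GRCm38.p6, chr13:4150597-4150896, minus strand) is shown for comparison with that of Plb1, since Akr1c18 lay far on the other side. It held neither TGANTCA nor AAGGTCA, the motif of the luteal factors Nr5a1 and Nr5a2, searched on both strands, which 4.72% of windows hold, so it has no capitals.
Akr1c18: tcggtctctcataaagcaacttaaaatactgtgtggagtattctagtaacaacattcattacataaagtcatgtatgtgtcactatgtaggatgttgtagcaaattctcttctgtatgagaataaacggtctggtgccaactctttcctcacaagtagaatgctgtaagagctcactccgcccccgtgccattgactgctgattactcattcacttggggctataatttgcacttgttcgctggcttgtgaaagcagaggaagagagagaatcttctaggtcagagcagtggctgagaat

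Of the 16 tested genes of progesterone breakdown and luteolysis, 0 passed in either direction by edgeR. Of the 16, 2 had an unadjusted p under 0.05 and DESeq2 called 1, Akr1c18, beside 7.21% and 1.05% of all genes tested by each. Both libraries labelled Fosl2cKO lay above both Fosl2F/F for 3 of the 16 and below for 4, where 26% and 16.4% of all tested genes did. The median log2 fold change of the list was -0.14 beside -0.01 over all genes. Ptgfr, the prostaglandin F2α receptor, was at 1226 and 533 CPM in Fosl2F/F, and at 179 and 485 CPM under the Fosl2cKO label (a log2 fold change of -1.53 ± 0.60, adjusted p 0.679). The groups did not overlap, but the nearest libraries, 533 and 485 CPM, differed little. Sfrp4 was at 4406 and 1448 CPM in Fosl2F/F, and at 307 and 1375 CPM under the Fosl2cKO label (a log2 fold change of -1.94 ± 0.83, adjusted p 0.688), again with the groups apart by a narrow margin. Without Fosl2F/F replicate 1 the log2 fold change was -0.71 for Ptgfr and -0.82 for Sfrp4, and without Fosl2cKO replicate 2 it was -2.42 and -3.38. Ptgfr too was high in sub-cluster 2, at 2080.2 and 2127 CPM, and stood at 391 CPM in sub-cluster 9 of Fosl2F/F replicate 2 and 332 and 714 CPM in sub-cluster 4 under the Fosl2cKO label.

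Star, the carrier of cholesterol into the mitochondrion, differed between the sub-clusters. Over all luteal cells it stood at 842 and 729.7 CPM in Fosl2F/F, and at 700 and 388 CPM under the Fosl2cKO label, with a log2 fold change of -0.64 ± 0.35 and an adjusted p of 0.708 by edgeR. In the core sub-clusters it stood at 687 and 911 CPM against 197 and 28.2 CPM, with a log2 fold change of -2.93 and an adjusted p of 0.407. In the Abcb1b-high sub-cluster 7 it stood at 965 CPM in Fosl2F/F replicate 2 and 1814 and 1289.8 CPM under the Fosl2cKO label, and in sub-cluster 6 of Fosl2F/F replicate 1 at 1536 CPM. The cells of sub-cluster 4, which had Plb1 in almost every cell, had Star at 183 and 20 CPM. The difference over all luteal cells was thus smaller than in the core alone, and neither passed.

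Cyp11a1, which the rule required, stood at 6339, 6231, 4225 and 4970.2 CPM, a description only. Hsd3b1 was at 2228, 3179, 2515 and 3399 CPM and Fdx1, the ferredoxin that passes electrons to Cyp11a1, at 2147, 2958, 2925 and 1753 CPM, with overlapping groups. Of the 18 steroid synthesis genes tested, which include Cyp11a1, Cyp17a1 and Hsd17b7 of the rule, 0 passed by edgeR and 0 by DESeq2. At an unadjusted p under 0.05 there were 2, both higher, beside 7.21% of all genes tested. Both libraries labelled Fosl2cKO lay above both others for 2 of the 18 and below for 4, beside 26% and 16.4% of all genes. The median log2 fold change of the 18 was -0.16. Of the 13 genes of cholesterol uptake, storage and trafficking 0 passed by either tool and 1 had an unadjusted p under 0.05, with a median of 0.08. Abca1, which exports cholesterol, was at 111, 94.5, 277 and 163 CPM, and Scarb1 at 815, 1581, 622 and 840 CPM. Of the 26 cholesterol synthesis genes 0 passed by edgeR, 4 had an unadjusted p under 0.05, all lower, and DESeq2 called 1. Of all genes tested, 3.94% were lower at such a p by edgeR, and DESeq2 called 1.05%. Fdps, which makes farnesyl diphosphate, was at 445, 519, 269 and 177 CPM, and Dhcr7, which makes cholesterol from 7-dehydrocholesterol, at 84.9, 112, 63.2 and 37.8 CPM, 2 of the 5 genes that lay below both Fosl2F/F libraries in both others, or 19.2% of the list beside 16.4% of all genes, while 1 lay above. The median of these genes was -0.42, or -0.25 in the core sub-clusters, and it turned to 0.19 without Fosl2F/F replicate 2.

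**Figure D4:**
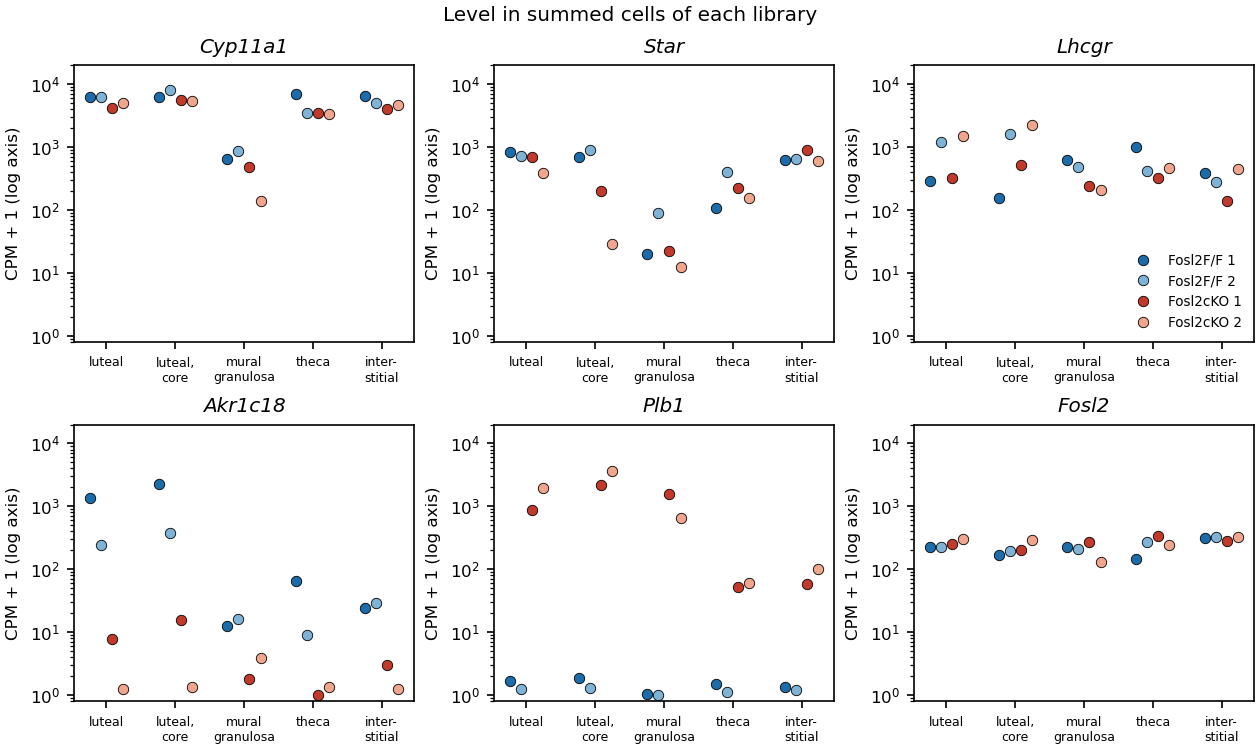
Levels of 6 genes in the summed cells of each library, as CPM + 1 on a log axis, for luteal cells, their core sub-clusters, and mural granulosa, theca and interstitial cells. Each point is 1 library. Plb1 is high in luteal and mural cells of the libraries labelled Fosl2cKO, Akr1c18 is high in luteal cells of Fosl2F/F, and Fosl2 lies at 129 to 341 CPM in every group shown.

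Lhcgr, the receptor of luteinizing hormone, was at 291 and 1219.8 CPM in Fosl2F/F, and at 326 and 1504 CPM under the Fosl2cKO label. Replicate 1 was low and replicate 2 high in both groups, the groups overlapped, and the log2 fold change was 0.20 ± 0.84 with an adjusted p of 0.95. Prlr was at 1270, 1861, 1561 and 2350.4 CPM, with overlapping groups. Of the 21 receptor and signal genes tested, 0 passed by edgeR, 5 had an unadjusted p under 0.05 and DESeq2 called 3, beside 7.21% and 1.05% of all genes tested by each. In 6 of the 21 both libraries labelled Fosl2cKO lay above both others and in 2 below, beside 26% and 16.4% of all genes. The 3 that DESeq2 called are given because it called them. Socs3, a feedback inhibitor of cytokine signalling, was at 121 and 136 CPM in Fosl2F/F, and at 314 and 295 CPM under the Fosl2cKO label, with a log2 fold change of 1.15 ± 0.21, an adjusted p of 0.442 by edgeR and 0.00195 by DESeq2. Prkar2b, a regulatory subunit of the cAMP-dependent kinase, was at 109.5 and 127 CPM against 318 and 287 CPM (a log2 fold change of 1.26 ± 0.22, adjusted p 0.442 by edgeR and 6.72e-04 by DESeq2). Cish, a target of prolactin signalling through Stat5, was at 71.8 and 153 CPM against 34.4 and 42.7 CPM (a log2 fold change of -1.63 ± 0.36, adjusted p 0.5 by edgeR and 0.00694 by DESeq2). In the core sub-clusters Socs3 stood at 33.3 and 72.6 CPM against 194 and 213 CPM, Prkar2b at 50.4 and 72.3 CPM against 213 and 269 CPM and Cish at 78.6 and 201 CPM against 43.5 and 49.5 CPM.

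After Plb1, the 10 genes with the smallest unadjusted p and a mean of at least 20 CPM did not pass in the edgeR test, with adjusted p from 0.193 to 0.429. Of these, 7 were lower and 3 higher in the libraries labelled Fosl2cKO, and DESeq2 called all 10, with adjusted p from 7.49e-26 to 3.11e-05. Onecut2, a homeobox factor of liver and nervous system, was at 245 and 104 CPM against 5.18 and 4.35 CPM. Cdkn2b, the cell-cycle inhibitor p15, was at 159 and 56.1 CPM against 10.4 and 8.94 CPM. The Fosl2F/F Onecut2 was highest in sub-clusters 2 and 3, at 482 and 803 CPM in sub-cluster 2 and 418 CPM in sub-cluster 3, which hold 1 and 4 cells under the Fosl2cKO label. In sub-clusters 9 and 10 of Fosl2F/F replicate 2 it was at 2.91 and 2.15 CPM, below the 10.9 and 7.15 CPM of sub-cluster 4 under the Fosl2cKO label. Cdkn2b was highest there too, at 280, 379 and 261 CPM in sub-clusters 2 and 3 and 9.6 and 14 CPM in 9 and 10. Fewer cells of those sub-clusters and less RNA per cell were not tested apart. Ccn5, a secreted protein of the CCN family, was at 120.3 and 92.9 CPM against 26 and 18.4 CPM, and Tnfrsf9, a receptor of the tumor necrosis factor family, at 57.4 and 35.4 CPM against 6.94 and 6.04 CPM. Rnf180 was at 303 and 356 CPM against 103 and 124 CPM, and the orphan receptor gene Gpr141 and the predicted gene Gm13481 were also lower, from 39.6 to 63.2 CPM against 4.59 to 6.26 CPM for Gpr141. On the higher side, Cebpd, a transcription factor of the C/EBP family, was at 5.64 and 11.1 CPM against 50.7 and 68.5 CPM, Ccbe1, which takes part in the activation of VEGF-C, at 93 and 97.6 CPM against 283 and 304 CPM, and Rhob, a small GTPase, at 119 and 116 CPM against 333 and 343 CPM. In the core sub-clusters Ccbe1 had a log2 fold change of 2.43, against 1.52 over all luteal cells.

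Of the 14 AP-1 genes tested, 9 were higher in both libraries labelled Fosl2cKO than in both Fosl2F/F libraries and 0 were lower in both, beside 26% and 16.4% of all tested genes, but 0 passed by edgeR. Of them 3 had an unadjusted p under 0.05 and DESeq2 called 1, beside 7.21% and 1.05% of all genes tested by each. The median log2 fold change of the list was 0.41, or 0.69 in the core sub-clusters. Jun was at 1238, 1779, 1960.1 and 2697 CPM, Fos at 1246, 1746, 2168 and 2143 CPM and Junb at 1014, 1134, 1382 and 1641 CPM. Jund was at 244, 278, 433 and 1887 CPM, high in Fosl2cKO replicate 2 alone. It was high in that library's mural granulosa cells (1039 CPM against 240.4 to 301 CPM) and interstitial cells too (1309 CPM against 201 to 317 CPM). AP-1 genes also respond to tissue dissociation, and the part of that in these values was not tested.

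Of the 93 oxidative phosphorylation genes, 78 were lower in both libraries labelled Fosl2cKO and 3 higher in both, beside 16.4% and 26% of all tested genes, yet 0 passed by edgeR. Of them 21 had a lower level with an unadjusted p under 0.05, as had 603 of all 15287 genes (3.94%). DESeq2 called 1 of the list, beside 1.05% of all genes it tested. The median log2 fold change of the list was -0.44, or -0.59 in the core sub-clusters. The summed level of the list was 20556 and 19896 CPM in Fosl2F/F and 16516 and 15548 CPM under the Fosl2cKO label. Uqcrq, a subunit of complex III, was at 274 and 335 CPM against 181 and 156 CPM, the smallest unadjusted p of the list, 0.00541, with an adjusted p of 0.517 by edgeR. These genes are not independent of each other. The share of mitochondrial UMIs, given above, overlapped between the groups.

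In the other lists 0 genes passed by edgeR. The 17 cell cycle genes, of which 1 had an unadjusted p under 0.05 and DESeq2 called 0, had a median log2 fold change of 0.68, with 12 higher in both libraries labelled Fosl2cKO beside 26% of all tested genes, but -0.08 in the core sub-clusters. Over all luteal cells that median was 0.32 without Fosl2F/F replicate 1, 1.09 without Fosl2F/F replicate 2 and 0.29 without Fosl2cKO replicate 1. The sum of these genes in the core was 134, 146, 174 and 154 CPM, against 218, 354, 537 and 395 CPM over all luteal cells. The 10 granulosa markers summed to 722, 688, 1068 and 659 CPM over all luteal cells, with 0 of the 10 at 0 in every library, and to 762, 398, 662 and 488 CPM in the core. Their median log2 fold change was 0.38 over all luteal cells and -0.12 in the core, and 2 of them, Inhba and Amh, are limited by the rule. Among 27 genes of the change from granulosa to luteal cell, 9 had an unadjusted p under 0.05 and DESeq2 called 4, beside 7.21% and 1.05% of all genes tested by each. Both libraries labelled Fosl2cKO lay above both others for 8 of them (29.6%) and below for 2 (7.41%), beside 26% and 16.4% of all tested genes. The median log2 fold change of the 27 genes was 0.48, or 0.33 in the core. Inhba, Amh and Runx2, which the rule used, are among these genes. Fst, the activin binder follistatin, was at 27, 67.5, 145 and 124 CPM, and Cdkn1c, the cell-cycle inhibitor p57, at 0.342, 1.46, 5.13 and 33.5 CPM. At an unadjusted p under 0.05 there were 3 of 27 antioxidant, 1 of 13 lipid droplet, 0 of 16 angiogenesis and 2 of 16 cell death genes, and DESeq2 called 1 antioxidant gene and 0 in the other three. The antioxidant genes had a median of -0.08, the lipid droplet genes -0.05, the angiogenesis genes 0.01 and the cell death genes 0.13. Both libraries labelled Fosl2cKO lay above both others for 7 antioxidant (25.9%), 3 lipid droplet (23.1%), 2 angiogenesis (12.5%) and 8 cell death genes (50%), beside 26% of all tested genes. They lay below for 6 (22.2%), 2 (15.4%), 1 (6.25%) and 3 (18.8%), beside 16.4%. Gpx4, which protects membranes from lipid peroxidation, was at 423, 564, 333 and 339.8 CPM, and Bax, which permeabilizes mitochondria in apoptosis, at 251, 243, 164 and 179 CPM, 2 of those below.

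**Figure D5:**
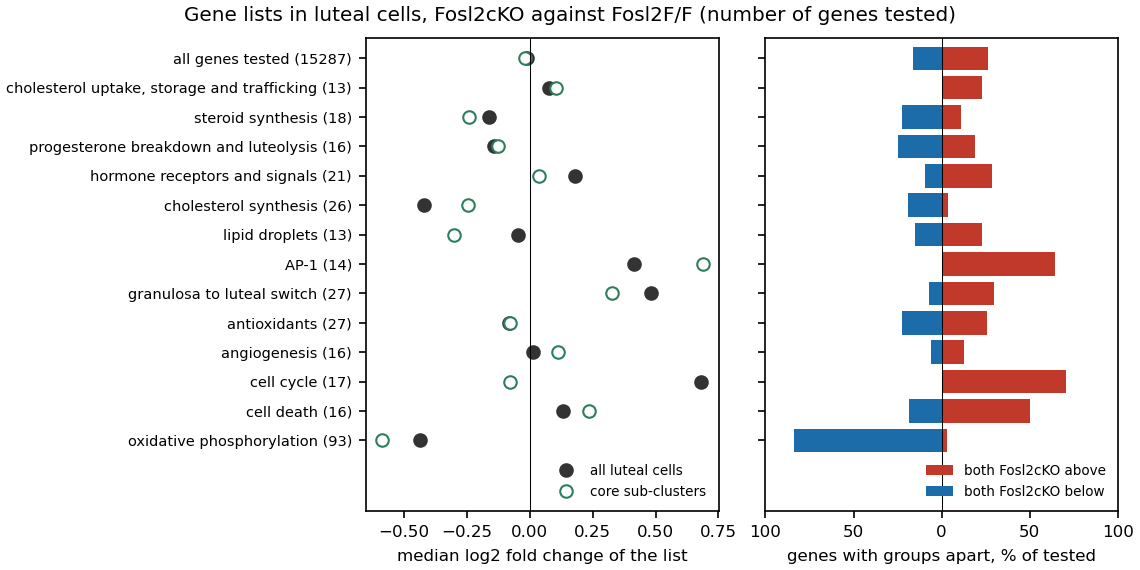
Left, median log2 fold change of each gene list in all luteal cells (filled) and in their core sub-clusters (open), with the number of genes tested in parentheses. Right, percent of each list with both Fosl2cKO libraries above or below both Fosl2F/F libraries. Oxidative phosphorylation lies at -0.44 and -0.59, AP-1 at 0.41 and 0.69, and cell cycle at 0.68 and -0.08.

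Markers of other cells varied between the libraries as well. The 8 stromal fibroblast markers summed to 377 and 528 CPM in Fosl2F/F and 704 and 703 CPM under the Fosl2cKO label, and to 77.4 to 121 CPM in the core sub-clusters. The 10 theca and interstitial markers summed to 875 to 2131 CPM over all luteal cells and to 623 to 831 CPM in the core sub-clusters. The sums of the 10 macrophage and leukocyte markers ranged from 77.5 to 241 CPM, of the 7 endothelial from 56.7 to 185 CPM, of the 6 pericyte from 69.2 to 399.8 CPM, of the 6 oocyte from 5.13 to 100.2 CPM, of the 5 epithelial from 34.5 to 188 CPM and of the 4 red cell markers from 1.53 to 6.63 CPM. The oocyte sums were 7.69, 100.2, 5.13 and 11.3 CPM, high in Fosl2F/F replicate 2 alone. Of the 5 oocyte markers tested, 4 were lower with an unadjusted p under 0.05 by edgeR, beside 3.94% of all genes. DESeq2 called 1 of them lower, beside 0.65%. The part of other cells in the differences over all luteal cells was not tested.

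Whether luteal cells responded differently from the other steroid-making cells was tested as the difference of the 2 responses within the same libraries. No gene passed against mural granulosa cells (0 of 14878, with 649 at an unadjusted p under 0.05), theca cells (0 of 14669, with 553, where 1 library rests on 26 theca cells) or interstitial cells (0 of 15455, with 882) by edgeR, and limma called 0 in each, so percent called was 0 in all 3. For Plb1 the luteal response exceeded that of theca cells by 3.98 and that of interstitial cells by 3.48 on the log2 scale, with unadjusted p of 0.0072 and 0.00567 and adjusted p of 1 and 0.737 by edgeR. Against mural granulosa cells it was -3.51, with an adjusted p of 0.977 and mural Fosl2F/F levels of 0.0421 and 0 CPM. The Fosl2F/F levels were also near 0 in luteal cells (0.684 and 0.26 CPM), theca cells (0.486 and 0.138 CPM) and interstitial cells (0.337 and 0.203 CPM). All 3 fitted differences therefore depend on the constant edgeR adds. Theca and interstitial Plb1 was not read as expression, so 3.98 and 3.48 are not read as a larger luteal response. The genes with the smallest p against mural cells were Tagln and Acta2, smooth muscle genes, and Socs3, with differences of 3.03, 3.02 and 1.82 and an adjusted p of 0.81. Against theca cells they were Spp1 and Clstn2, at 3.30 and 2.73. Luteal Spp1 stood at 32, 14.2, 451 and 6.84 CPM, high in Fosl2cKO replicate 1 alone, and the difference was 2.06 without that library. Against interstitial cells they were Ccbe1 and Sdc3, at 1.23 and -1.63, with adjusted p of 0.87 against theca and 0.726 against interstitial cells. A difference that did not pass does not show that the responses were alike.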

How the data were processed

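Ovaries were profiled with the Chromium 3′ v3 kit in 4 libraries. The authors aligned reads to GRCm38 with Cell Ranger and deposited raw UMI counts per gene and barcode for called cells, 1 matrix a library. The file headers name Cell Ranger 7.1.0 and the methods another version. The methods name CellBender, which removes free RNA, and do not say whether the deposited counts were corrected. The strand setting is not given in the sources used here. Total UMIs per library ranged from 120327227 to 148836173.

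Luteal UMIs were summed per library and tested with edgeR 4.0.16 (R 4.3.3; filterByExpr, TMM, quasi-likelihood test, Benjamini-Hochberg adjustment over all genes tested). A call needed an adjusted p below 0.1 and a fold change beyond 0.25 on the log2 scale. DESeq2 1.42.0 and limma 3.58.1 gave alternatives. The difference between cell classes was tested as an interaction with library as a block. Doublets were scored with Scrublet in scanpy 1.11.5 (Python 3.11.15). The highest scores of a library were marked, at 0.8% of its cells for every 1000 filtered cells. The marked share thus follows library size, at 7.03% and 19.5% of filtered cells in Fosl2F/F and 5.74% and 6.01% under the Fosl2cKO label. Marked cells were kept, and removed in an alternative. Scripts were tested on simulated data. With the spread between libraries fitted to the luteal sums, edgeR found 18% of 200 genes simulated with a 2-fold change. With the fitted dispersion, the measure of that spread, divided by 10, it found 100%. A luteal gene that did not pass may therefore still differ. Intervals and limits at a count of 0 (3 counts of the total) cover counting error only.

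The members and gene lists were chosen with earlier results of these data known. The core sub-clusters (under 25% marked doublets, mean Abcb1b under 1000 CPM) were chosen after their values were seen. Named genes were the genes of the rule and lists, Fosl2 and Plb1, genes that passed with a mean of at least 20 CPM (with fewer than 10, also the 10 smallest p), 5 for each interaction, the 20 leading genes, and up to 5 leading genes of each sub-cluster. Other leading genes of sub-clusters named in the text were chosen after their values were seen. Of 22 listed receptor and signal symbols, 21 matched. Some named-gene results are not reported here.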

Additional observations from a re-analysis of the deposited data

How the results depend on the processing

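Over 49 results and 770 alternative values, 611 were marked the same, 17 lost the call, 95 gained it, 34 moved and 13 reversed. For single genes, the same meant that direction and side of the threshold were kept. For medians of lists, it meant a value within a fixed ratio of the main one. The median over all genes tested was marked the same in every alternative without a check. The count of luteal genes called, 3, became 256 with DESeq2, 1 with library totals only, 899 with no gene filter, 1 with at least 5 and 8 with at least 3 of the rule genes, 12 in cells thinned to 2000 UMIs, and 0 at an adjusted p under 0.05 with no minimum fold. Leaving out 1 library gave 0 to 98 genes, with 0 without Fosl2F/F replicate 1, 98 without Fosl2F/F replicate 2, 35 without Fosl2cKO replicate 1 and 18 without Fosl2cKO replicate 2. In the core sub-clusters 2 genes were called, and 0 to 40 without 1 library. The lone library left is then assumed to vary like the other group. Plb1 was called in 18 of 20 alternatives, Gm36840 in 16 and Pitx1 in 12. Calls against other cells, 0 each, became 401, 211 and 173 with no gene filter for mural, theca and interstitial cells, and 0 to 1, 0 to 213 and 0 without 1 library, with 49 against theca cells without Fosl2F/F replicate 1 and 213 without Fosl2F/F replicate 2. The log2 ratio of luteal shares, 0.52, turned to -0.68 in cells thinned to 5000 UMIs and ranged from -0.14 to 1.76 without 1 library, being -0.14 without Fosl2F/F replicate 1. The fold change of Lhcgr ranged from -1.27 to 1.46 without 1 library, turning to -0.45 and -1.27 without Fosl2F/F replicate 1 and Fosl2cKO replicate 2, and to -0.35 and -0.85 in the core sub-clusters without the same libraries. Medians turned for cell cycle genes (-0.00045 thinned, -0.078 in core sub-clusters, and -0.23 and -0.43 there without Fosl2F/F or Fosl2cKO replicate 1), cholesterol synthesis (-0.78 to 0.19 without 1 library, 0.19 without Fosl2F/F replicate 2, 1.01 in core sub-clusters without that library), steroid synthesis (0.028 in those sub-clusters without it) and luteolysis (0.16 and 0.17 without Fosl2F/F or Fosl2cKO replicate 2). The cause was not tested.

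With the replicate block 12 genes were called. The labels do not tie equal replicate numbers to a shared animal or batch, and the within-group differences of the replicates correlated at 0.0845 over 15287 genes between the groups, so the numbers were not taken to pair the libraries. Depth limits the shares at a count of 0, whose upper limits are given.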
